A study of Mus musculus with 18 samples.

Results

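Glucocorticoid-responsive genes are genes whose transcription is known to follow the stress hormone corticosterone, and 33 of them were followed here in the hippocampus of mice that had been rotated to disturb their sense of position. The members were chosen by name, as the rows of the deposited table whose Ensembl identifier maps to one of the 33 listed mouse symbols. They were chosen with earlier results of these data known. Counts of members set beside shares of all genes below are therefore descriptions. Rows were found for 33 of 33, among 22063 genes in the table, and 33 passed the filter on low counts, among 14763 genes tested. The 18 libraries fall into 4 groups. Control (n = 3) is what the labels call a blank control, with no treatment named. The S-V group (n = 5 libraries) was turned in 1 direction with the eyes covered, and D+V (n = 5) in both directions with free sight. D-V (n = 5) was turned in both directions with the eyes covered, which the labels name the Coriolis illusion. No strain, age, sex or genotype is given in the labels used here, nor the length of the rotation, and the hippocampus was taken at once after it. The controls are not described as having been placed in the apparatus or handled in the same way, and the labels do not say that each library is a separate animal, so the p-values below measure the spread between these libraries.

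Corticosterone, released by the adrenal gland in stress, crosses into the brain and binds the glucocorticoid receptor and the mineralocorticoid receptor, both nuclear receptors, of which the hippocampus is a classical site. The bound receptor leaves its Hsp90 chaperone complex, enters the nucleus and acts either as a pair of molecules on a palindromic DNA element or through contacts with other factors. Its well-known targets dampen the hormone signal itself (Fkbp5), restrain inflammatory signalling (Tsc22d3, Nfkbia), regulate ion transport and cell survival (Sgk1), slow growth and protein synthesis (Ddit4, Cdkn1a), shift fuel use from glucose to fat (Pdk4, Angptl4) and bind metals (Mt1, Mt2). Many of them are expressed more in astrocytes, oligodendrocytes and vessel cells than in neurons.

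Promoter windows are shown first for the members that carry a palindrome, and for the 2 metallothionein genes with their metal elements. Palindromes of this kind can bind the receptor, and metal elements the metal-sensing factor MTF1. RefSeq windows on GRCm38.p6, from 250 bases before to 50 after each start, were found for 27 of the 33 genes, in 41 windows; Zbtb16, Angptl4, Xdh, Cebpd, Ccn2 and Gpd1 had no entry. The full palindrome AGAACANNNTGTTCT, searched on both strands, was in 3 of 32851 windows of all genes (0.00913%) and in 1 of the 41, which is 1 of the 6 windows of Sgk1, 189 bases before the start. The window lies at chr10:21993640-21993919 on the plus strand, with the palindrome in capitals.
Sgk1: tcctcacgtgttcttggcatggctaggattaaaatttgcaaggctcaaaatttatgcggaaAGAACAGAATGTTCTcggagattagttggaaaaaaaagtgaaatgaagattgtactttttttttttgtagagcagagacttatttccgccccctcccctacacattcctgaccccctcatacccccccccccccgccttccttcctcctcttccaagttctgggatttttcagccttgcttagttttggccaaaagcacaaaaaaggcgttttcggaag
The shorter form ACANNNTGTTC, which the full palindrome contains, was in 0.971% of all windows and was found for 4 members, Sgk1, Mt1, Map3k6 and Fam107a. It is in capitals here for Map3k6 (chr4:133240604-133240683, plus strand, 179 bases before the start) and Fam107a (chr14:8309851-8309930, minus strand, 116 bases before the start).
Map3k6: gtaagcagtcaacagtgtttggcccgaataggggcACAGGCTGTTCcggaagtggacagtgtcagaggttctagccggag
Fam107a: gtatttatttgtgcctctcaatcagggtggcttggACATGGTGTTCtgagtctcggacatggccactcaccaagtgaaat
The neighbouring metallothionein genes Mt2 (chr8:94172368-94172647) and Mt1 (chr8:94178839-94179118), both on the plus strand, are shown with the metal elements TGCACNC and TGCGCNC in capitals, on either strand. These letters are common, in 12.6% and 15.4% of all windows, and the windows of both genes held both. Other members carried them too and are not printed for them. TGCACNC was also found for Fam107a, Hif3a, Il1r1, Mfsd2a and Nfkbia, and TGCGCNC for Ddit4, Rhob and Sgk1.
Mt2: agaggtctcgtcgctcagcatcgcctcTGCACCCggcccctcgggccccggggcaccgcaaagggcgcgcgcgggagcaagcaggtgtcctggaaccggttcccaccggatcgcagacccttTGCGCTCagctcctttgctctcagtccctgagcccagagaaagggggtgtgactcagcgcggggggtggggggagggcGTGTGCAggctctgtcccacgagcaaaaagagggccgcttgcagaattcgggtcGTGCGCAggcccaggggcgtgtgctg
Mt1: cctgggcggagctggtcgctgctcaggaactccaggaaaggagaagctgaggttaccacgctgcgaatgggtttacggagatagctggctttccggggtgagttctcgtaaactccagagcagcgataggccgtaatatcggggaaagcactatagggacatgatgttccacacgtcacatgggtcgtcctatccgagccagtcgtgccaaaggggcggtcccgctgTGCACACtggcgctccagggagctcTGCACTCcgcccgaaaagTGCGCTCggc
A match is a description of the letters and does not show that a factor was bound.

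Library totals were 20.44 to 22.17 M estimated counts in Control, 15.56 to 24.28 M in S-V, 15.03 to 25.31 M in D+V and 15.39 to 21.43 M in D-V. The 12 markers of hippocampal neurons all passed the filter and summed to 2528 to 3196 CPM (counts scaled by library size) over the libraries. Other cell types were present as well: for choroid plexus epithelium, endothelium and pericytes, astrocytes, oligodendrocytes, microglia, meningeal fibroblasts, thalamus and habenula, and red blood cells, every listed marker passed the filter, and none was at 0 in all libraries. In 5 libraries, S-V 2, S-V 4, D+V 2, D-V 3 and D-V 4, the 14 choroid plexus markers summed to 4048 to 11144 CPM, against at most 1369 CPM in the others, and the comparisons and genes that moved most without these 5 are given below both ways. In D+V 2, 3 and 5 the 10 astrocyte markers summed to 5838 to 6180 CPM, above the 5318 CPM that was the highest of the other libraries. In bulk tissue, fewer cells of a type cannot be told apart from less RNA per cell.

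The 33 genes covered a wide range of levels. Per kilobase of exon, the metallothioneins Mt2 (208 CPM per kb, mean of the 18 libraries) and Mt1 (148 CPM per kb) stood highest, followed by the small GTPase gene Rhob (131 CPM per kb) and the actin-binding stress gene Fam107a (109 CPM per kb). Sgk1 (20.7 CPM per kb), Tsc22d3 (19.9 CPM per kb) and Fkbp5 (9.97 CPM per kb) lay in the middle of the list, and Hif3a was lowest at 0.556 CPM per kb. Within the groups, the members' median residual SD was 0.248 on the log2 CPM scale, against 0.172 for all genes tested. Gpd1, the glycerol phosphate dehydrogenase of the cytosol, was the steadiest at 0.0489, and the secreted iron-carrier gene Lcn2 the least steady at 1.36.

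**Figure D1:**
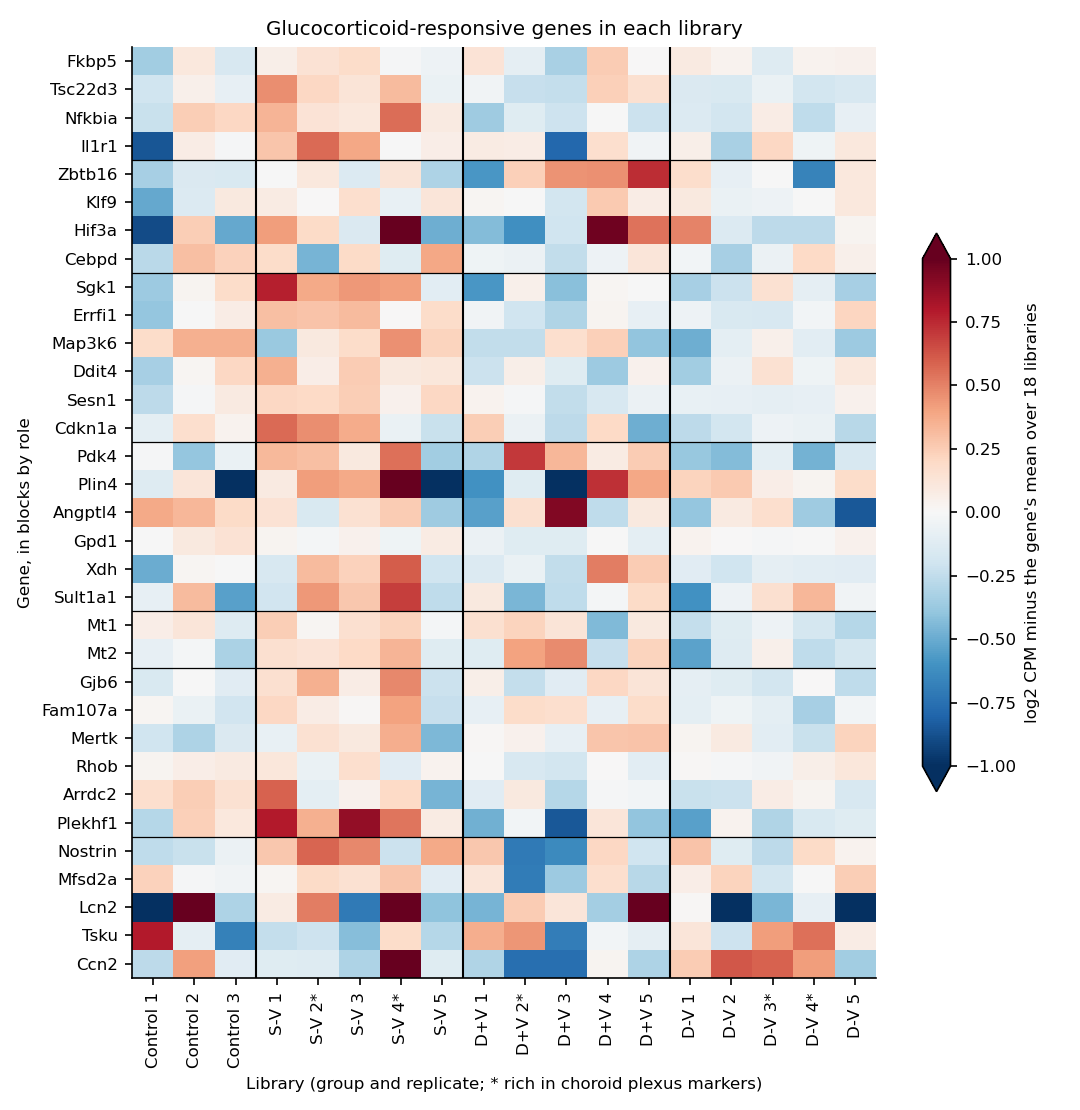
Level of each of the 33 genes (rows, in blocks by role) in each of the 18 libraries (columns), as log2 CPM minus the gene's own mean over the libraries; colours stop at 1 in either direction. S-V 1 to 4 have 25 to 28 of the 33 genes above their mean, and S-V 5 has 12.

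Across the groups the list was high in 4 of the 5 libraries rotated in a single direction with eyes covered. The median deviation of the 33 genes from their own means was 0.16, 0.15, 0.17 and 0.28 on the log2 scale in S-V 1 to 4, and -0.11 in S-V 5. In Control it was -0.20, 0.06 and -0.04, and in D+V it ran from -0.24 to 0.05. In D-V it was -0.07, -0.12, -0.05, -0.07 and -0.03, with an SD of 0.0339 against 0.144 in S-V. The 4 high S-V libraries lay above all 13 libraries of the other groups, 2 of them (S-V 2 and S-V 4) being among those rich in choroid plexus markers and the other 2 not.

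**Figure D2:**
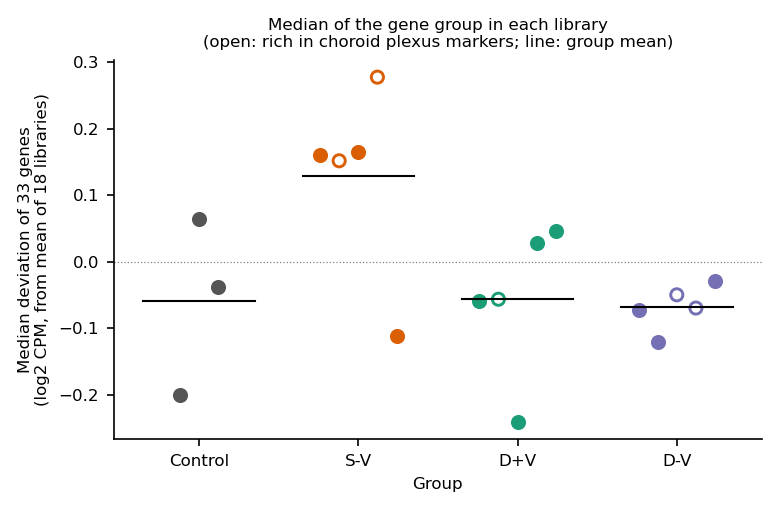
Median deviation of the 33 genes (log2 CPM from each gene's mean over 18 libraries) in each library, by group; open points are the 5 libraries rich in choroid plexus markers and lines are group means. S-V 1 to 4 lie between 0.15 and 0.28, while the 5 D-V libraries lie between -0.12 and -0.03.

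The comparison of D-V with S-V sets rotation in both directions against rotation in a single direction, with the eyes covered in both. In D-V, 31 of the 33 genes were lower than in S-V and 2 were higher, the secreted proteins Tsku and Ccn2, and the median difference, here and below a fitted log2 fold change, was -0.26, where 50.1% of all genes tested were lower and their median was -0.0001. No gene of the whole table passed edgeR's quasi-likelihood test at an adjusted p under 0.05 in this comparison (0% of those tested), so none of the members was called. At an unadjusted p under 0.05, 13 members were lower and 0 higher, where 2.93% of all genes tested were lower at that level and 6.29% passed it in either direction. Plekhf1, Nfkbia and Mt1 were lower in each D-V library than in any S-V library, a separation found for 0.894% of all genes. DESeq2 and limma also called 0 members here (0.0271% and 0% of all genes). In each, 13 members passed an unadjusted p under 0.05, where 6.51% of all genes did with DESeq2 and 12.6% with limma.

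The direction in this comparison held when libraries were left out. With any 1 of the 10 libraries removed, the median of the members stayed between -0.32 (without S-V 5) and -0.20 (without S-V 4). In these fits 11 to 15 members were lower at an unadjusted p under 0.05. The share of all genes that passed in either direction was 4.62% (without S-V 1) to 7.05% (without S-V 4). Of the 31 lower genes, 24 kept their sign in each of those fits; Cebpd, Gpd1, Mertk, Mfsd2a, Plin4, Rhob and Zbtb16 did not. Without the 5 libraries rich in choroid plexus markers, 26 genes were lower and the median was -0.26. At an unadjusted p under 0.05, 11 were lower there, where 9% of all genes passed in either direction. In that fit Plin4 (0.34), Mertk (0.24), Zbtb16 (0.21), Hif3a (0.17) and Mfsd2a (0.16) were higher in D-V beside Tsku and Ccn2. Markers of other cells differed in the same comparison: all 10 oligodendrocyte markers (median -0.14, summed to 6108 to 8904 CPM in S-V and 5612 to 7726 CPM in D-V), 9 of 10 astrocyte markers (median -0.10, 4477 to 5318 and 4208 to 5061 CPM) and 9 of 10 microglial markers (median -0.14, 547 to 640 and 529 to 571 CPM) were lower in D-V, and all 14 choroid plexus markers were higher (median 0.56, 185 to 4332 and 151 to 11144 CPM). Red blood cell markers were higher in D-V for 6 of 6 genes (median 0.62, 602 to 1001 and 917 to 1749 CPM), and markers of thalamus and habenula lower for 9 of 12 (median -0.30, 160 to 213 and 166 to 185 CPM). Of the 12 markers of endothelium and pericytes, 9 were higher in D-V and 3 lower (median 0.04, 378 to 404 and 390 to 411 CPM). Although all 14 choroid plexus markers had higher fitted means in D-V, their median sum was lower there, at 246 CPM against 809 CPM in S-V. The part of all these markers in the result was not tested.

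**Figure D3:**
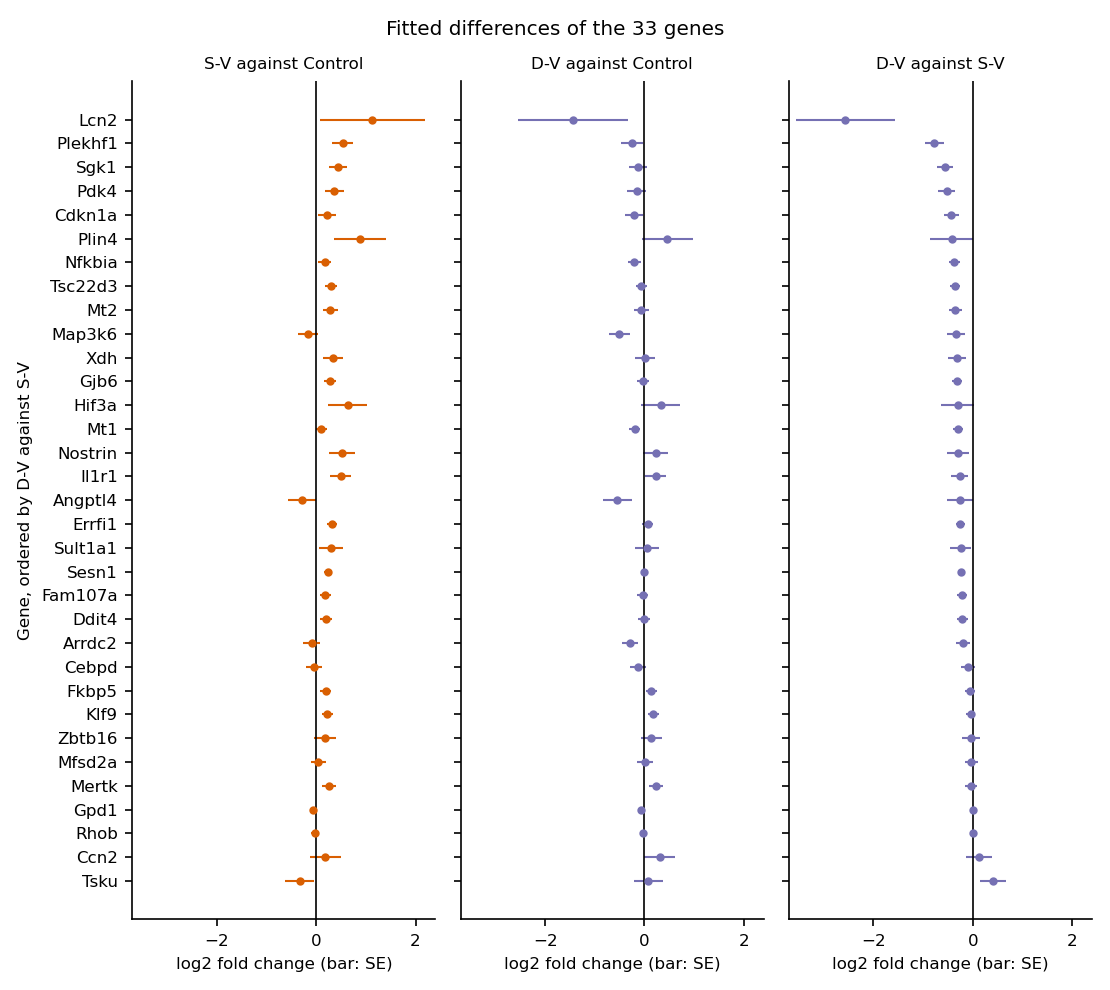
Fitted log2 fold change of each of the 33 genes (points) with its standard error (bars) for S-V against Control, D-V against Control and D-V against S-V, in the order of the last. In the right panel 31 of 33 points lie at or left of 0, with Lcn2 farthest at -2.57 and Tsku farthest to the right at 0.41; the first and last panel share the S-V libraries and the first and second share the controls.

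Against Control, the same S-V libraries gave 26 of 33 genes higher and 7 lower, with a median of 0.22 against 0.002 for all genes, of which 50.6% were higher. None was called by edgeR (0% of all genes tested); 8 members were higher and 0 lower at an unadjusted p under 0.05, where 13.4% of all genes passed in either direction and 7.41% as higher. None of the 33 had each S-V library above each control, a separation found for 6.62% of all genes. The count of 8 depended on single libraries, and the share of all genes that passed in either direction, given in brackets, moved too. It was 0 without Control 1 (9.35%), 4 without S-V 1 (11.3%), 5 without S-V 2 (11.1%) and 5 without S-V 3 (11.8%). In the other direction, it was 10 without Control 2 (10.9%) and 12 without S-V 5 (11.5%). Without the libraries rich in choroid plexus markers it was 5 (12.6%), with the median at 0.11. All 14 choroid plexus markers (median 1.51) and all 6 red blood cell markers (median 0.49, summed to 479 to 640 CPM in Control and 602 to 1001 CPM in S-V) were higher in S-V, and 9 of 12 markers of thalamus and habenula were lower (median -0.38, 183 to 261 and 160 to 213 CPM). Of the 12 markers of endothelium and pericytes, 9 were lower and 3 higher (median -0.08, 379 to 427 and 378 to 404 CPM). Their smallest adjusted p by edgeR was 0.0904. Of the 12 markers of hippocampal neurons, 9 were lower and 3 higher (median -0.13, 2761 to 3172 and 2528 to 2944 CPM). The dependence of the counts on base composition also separated these groups. Its slope per 10 percentage points of GC, on the log2 scale, was 0.039 to 0.167 in Control and -0.069 to -0.005 in S-V. With GC and length trends removed, 29 members were higher, with a median of 0.21. In that fit 5 members were at an unadjusted p under 0.05, where 6.8% of all genes passed in either direction. The part of all these markers and of base composition in the result was not tested.

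After rotation in both directions the list as a whole lay near the controls. In D-V against Control, 14 genes were higher and 19 lower, with a median of -0.03 against 0.005 for all genes; 0 were called (0% of all genes), and 1 was lower at an unadjusted p under 0.05, where 6.02% of all genes passed. The number lower was 0 without D-V 1 and 2 without Control 1, D-V 2 or D-V 3. Without Control 3, 1 was lower and 1 higher, and without Control 2, 0 were lower and 1 higher. In these fits 4.82% (without D-V 2) to 6.49% (without Control 3) of all genes passed in either direction. In D+V against Control, 15 were higher and 18 lower, with a median of -0.02 against -0.002; 0 were called by edgeR, where 0.942% of all genes were, and 5 passed at an unadjusted p under 0.05, 2 of them higher and 3 lower, where 17.6% of all genes did. With the share of all genes in brackets, it was 2 without Control 1 (12%), 3 without Control 2 (11.8%) or D+V 2 (16.6%) and 1 without D+V 5 (14.8%). It was 6 without D+V 1 (25.6%) and 7 without D+V 4 (16.2%). DESeq2 called 1 member in D+V against Control, Gpd1, where it called 6.45% of the genes to which it gave an adjusted p. Limma called 2, Gpd1 and Zbtb16, where it called 12.7% of all genes. Neither tool called a member in S-V or D-V against Control. For S-V, DESeq2 called 2.64% of the genes to which it gave an adjusted p, and limma 2.15% of all genes. For D-V these shares were 0.0203% and 0%. In D+V, 9 of 10 astrocyte markers were higher than in Control (median 0.11, summed to 4724 to 6180 CPM against 4498 to 4970 CPM) and 9 of 12 markers of endothelium and pericytes lower (median -0.29, 321 to 402 CPM against 379 to 427 CPM). Of these, 1 astrocyte marker and 2 markers of endothelium and pericytes passed the test. Base composition differed as well. The slope per 10 percentage points of GC was -0.121 to -0.025 in D+V and -0.035 to 0.113 in D-V, against 0.039 to 0.167 in Control. With GC and length trends removed, 0 genes were called in D+V against Control. In that fit 3 members passed an unadjusted p under 0.05, where 8.21% of all genes did. All 6 red blood cell markers were higher in both D+V (median 1.51) and D-V (median 1.17). Markers of thalamus and habenula were lower for 10 of 12 genes in D+V (median -0.26, 162 to 221 CPM) and 11 of 12 in D-V (median -0.56, 166 to 185 CPM). The 14 choroid plexus markers had higher fitted means in both as well. Their sums were 146 to 9496 CPM in D+V and 151 to 11144 CPM in D-V, against 164 to 1164 CPM in Control. The median sum was lower in D+V (161 CPM) and D-V (246 CPM) than in Control (444 CPM). The part of these markers and of base composition in the values of the 33 genes was not tested. The comparisons of the 3 rotated groups share the same 3 controls. In D+V, 1 member lay above and 3 lay below all controls in every library, and in D-V 0 lay above and 3 below. The share of all genes so separated was not counted for D+V or D-V. These counts therefore have no baseline, and neither do the separations of single genes from the controls given below for these groups.

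Averaged over the 3 rotated groups, the comparison with Control gave 20 genes higher and 13 lower, with a median of 0.07 against 0.002 for all genes. None was called by edgeR (0% of all genes tested), by DESeq2 (2.55% of the genes to which it gave an adjusted p) or by limma (2.58% of all genes). At an unadjusted p under 0.05, 3 members passed, where 12.9% of all genes did. Without D+V 3 it was 5, and without any 1 of Control 1, S-V 2, S-V 3, S-V 5, D+V 5 and D-V 5 it was 1. In these fits 8.5% (without Control 1) to 13% (without D+V 3) of all genes passed. D-V against D+V, which differ in whether the eyes were covered, gave 17 higher and 16 lower, with a median of 0.005 against 0.009. Again 0 were called by edgeR (0% of all genes tested) and 0 by DESeq2, and 4 passed at an unadjusted p under 0.05, where 13.6% of all genes did. DESeq2 called 2% of the genes to which it gave an adjusted p. Limma called 3 members there, Zbtb16, Pdk4 and Mt2, where it called 5.55% of all genes. The 4 became 8 without D+V 1, where 23.7% of all genes passed the unadjusted threshold and 8.38% were called, and 8 without D+V 4, where 13.8% passed it and 0.422% were called. Between these groups, 9 of 10 astrocyte markers were lower in D-V (median -0.24) and 12 of 12 markers of endothelium and pericytes higher (median 0.22). Red blood cell markers were lower for 6 of 6 genes (median -0.34) and those of thalamus and habenula for 11 of 12 (median -0.18), and the part of these markers was not tested either.

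Among the regulators of the receptor and of cytokine signalling, Fkbp5, Tsc22d3, Nfkbia and Il1r1, 4 of 4 were lower in D-V than in S-V and 4 of 4 higher in S-V than in Control, and 0 passed the test in any comparison. Per library, values here and below are in CPM, in order of replicate number. Fkbp5, the co-chaperone that lowers the receptor's affinity for hormone, was at 50.9, 69.7 and 58.1 in Control, 67.6, 71.8, 73.7, 64.3 and 62.7 in S-V, 71.3, 60.9, 51.8, 77.4 and 64.9 in D+V and 68.8, 66.4, 59.3, 66.5 and 66.9 in D-V. All 4 groups overlapped, and D-V 3 lay below the other D-V libraries. The log2 differences were 0.19 for S-V, 0.13 for D+V and 0.14 for D-V against Control. Without Control 1 these were 0.09, 0.03 and 0.04, and without Control 2 0.32, 0.26 and 0.27. The difference was -0.05 (SE 0.094) for D-V against S-V. It was not among the 13 genes at an unadjusted p under 0.05 in the last of these. Tsc22d3, which encodes the leucine zipper protein GILZ that holds back inflammatory transcription, was at 47.5, 56.4 and 51.4 in Control, 75.4, 62.9, 59.8, 67.8 and 52.2 in S-V, 53.1, 46.6, 46.1, 64.3 and 60.9 in D+V and 49.3, 49.2, 52.2, 47.9 and 48.9 in D-V. S-V 1 to 4 were above every control and every D-V library. S-V 5 lay among them, and D+V 4 and 5 reached the S-V range. Its difference was log2 -0.36 (SE 0.10, unadjusted p = 0.0013, adjusted p = 0.651) for D-V against S-V and log2 0.30 (SE 0.11, unadjusted p = 0.0156, adjusted p = 0.258) for S-V against Control.

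Nfkbia, which encodes the inhibitor that keeps NF-kB in the cytoplasm, was at 12.5, 17.3 and 16.9 in Control, 18.6, 16.1, 15.8, 21.6 and 15.6 in S-V, 11.4, 13.4, 12.7, 14.6 and 12.6 in D+V and 13.3, 12.9, 15.4, 12.3 and 13.8 in D-V. The lowest S-V library lay above the highest D-V library by a small margin, while the controls spanned both groups. Its difference was log2 -0.37 (SE 0.11, unadjusted p = 0.00297, adjusted p = 0.651) for D-V against S-V and log2 -0.27 (SE 0.13, unadjusted p = 0.0486, adjusted p = 0.279) for D+V against Control. In the latter the 5 D+V libraries overlapped the control range through Control 1; it was -0.40 without that control and -0.16 with GC and length trends removed. Il1r1, the signalling receptor for interleukin 1, had a difference of 0.49 in S-V against Control (unadjusted p = 0.0308). Control 1, at 8.50 CPM, lay far below the other controls at 15.3 and 16.2 CPM, and without it the difference was 0.25.

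**Figure D4:**
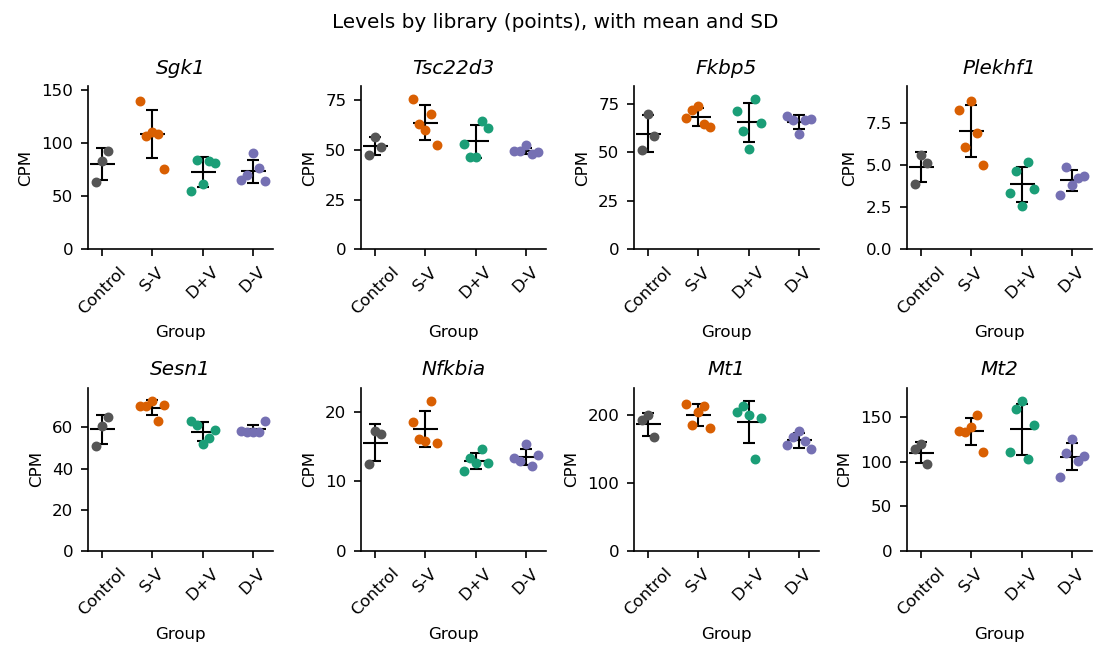
CPM of 8 members in each library (points) by group, with group mean and SD (bars), and axes start at 0. Plekhf1, Nfkbia and Mt1 have no overlap between S-V and D-V, Sgk1, Tsc22d3, Sesn1 and Mt2 overlap through 1 or a few libraries, and Fkbp5 overlaps throughout.

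The transcription factors Zbtb16, Klf9, Hif3a and Cebpd, the last a member of the C/EBP family, were lower in D-V than in S-V for 4 of 4 genes. Their log2 differences were -0.03, -0.04, -0.31 and -0.09, none at an unadjusted p under 0.05, and no factor passed the test in any comparison. The 4 of 4 did not hold in other fits: without the libraries rich in choroid plexus markers Zbtb16 was at 0.21, Hif3a at 0.17 and Cebpd at -0.35, Hif3a was at -0.04 without S-V 4 and Cebpd at 0.002 without S-V 5. Zbtb16, a zinc finger repressor, was at 20.7, 23.7 and 23.6 in Control, 26.1, 28.2, 23.7, 28.7 and 21.1 in S-V, 17.4, 30.9, 35.8, 36 and 43.7 in D+V and 29.5, 24.7, 26, 16.4 and 28.1 in D-V. D+V 2 to 5 lay above every other library, and D+V 1 was below all controls. The fitted difference was log2 0.53 (SE 0.22, unadjusted p = 0.0266, adjusted p = 0.216) for D+V against Control and log2 -0.39 (SE 0.19, unadjusted p = 0.0526, adjusted p = 0.374) for D-V against D+V. Without D+V 1 it was 0.69 against Control and was called at an adjusted p of 0.0136, in a fit that called 8.58% of all genes. D-V against D+V was then -0.55, called at an adjusted p of 0.0192. Without the 3 D+V libraries rich in astrocyte markers the difference from Control was 0.24. Klf9, a Krueppel-like factor tied to the hormone's effects on neurons, was at 119.7, 155 and 182 in Control, 180.2, 171, 191, 162 and 185 in S-V, 172, 169.8, 150.2, 204 and 179 in D+V and 182, 163, 165, 170.2 and 183 in D-V. Control 1 was the lowest of all 18 libraries, and the difference of the rotated groups from Control was log2 0.20 (SE 0.093, unadjusted p = 0.0422, adjusted p = 0.368); S-V alone was at 0.22 against Control, and without Control 1 the 2 values were 0.05 and 0.08. Hif3a, a subunit of the hypoxia-inducible factors that can dampen their activity, was at 7.17 CPM in S-V 4 and 6.70 CPM in D+V 4, above the 1.76 to 4.94 CPM of the other libraries.

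The kinases and growth regulators were lower in D-V than in S-V for 6 of 6 genes, 4 of them at an unadjusted p under 0.05, and 0 of 6 passed the test in any comparison. Sgk1, the serum- and glucocorticoid-regulated kinase whose promoter palindrome is printed above, was at 63.4, 83.2 and 92.7 in Control, 139, 106, 109.8, 108 and 75.7 in S-V, 54.4, 84.3, 61.1, 82.6 and 81.1 in D+V and 64.8, 70.1, 90.6, 76.4 and 64.5 in D-V. S-V 1 to 4 were above every library of the other groups, and S-V 5 lay among them. The difference was log2 -0.56 (SE 0.16, unadjusted p = 0.00241, adjusted p = 0.651) for D-V against S-V, a fold of 0.678, and log2 0.44 (SE 0.18, unadjusted p = 0.029, adjusted p = 0.307) for S-V against Control. For D+V and D-V it was -0.13 and -0.12 against Control, and -0.27 and -0.26 without Control 1. Without the libraries rich in choroid plexus markers, D-V against S-V was -0.71.

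Sesn1, a sestrin that restrains the growth kinase complex mTORC1, was at 51.1, 60.9 and 65.2 in Control, 70.6, 70.6, 72.7, 63.1 and 71 in S-V, 62.9, 60.9, 51.8, 54.9 and 59 in D+V and 58.3, 57.9, 57.7, 57.9 and 63.2 in D-V. S-V 1, 2, 3 and 5 were at 70.6 to 72.7 CPM, above every library of the other groups, and S-V 4 was apart from them at 63.1 CPM. Its difference was log2 -0.24 (SE 0.069, unadjusted p = 0.00247, adjusted p = 0.651) for D-V against S-V and log2 0.24 (SE 0.08, unadjusted p = 0.00736, adjusted p = 0.216) for S-V against Control, the smallest p among the members in the latter. Errfi1, a feedback inhibitor of the EGF receptor, was at 34.5, 44.9 and 47.5 in Control, 55.8, 55, 56.2, 45.2 and 51.4 in S-V, 44, 39.3, 36.7, 46 and 42.6 in D+V and 43.7, 40.5, 40.4, 44.3 and 52.3 in D-V. S-V 1, 2, 3 and 5 were above the controls, and D-V 5 reached into the S-V range. The differences were log2 0.32 (SE 0.11, unadjusted p = 0.00773, adjusted p = 0.219) for S-V against Control and log2 -0.25 (SE 0.093, unadjusted p = 0.0127, adjusted p = 0.719) for D-V against S-V. Leaving out Control 1 took the difference of S-V from Control to 0.14 for Sesn1 and to 0.19 for Errfi1.

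Map3k6, a stress-activated kinase with the shorter palindrome in its promoter, had its highest mean in Control, and was at 3.57, 4.02 and 4.03 in Control, 2.39, 3.35, 3.57, 4.34 and 3.66 in S-V, 2.61, 2.62, 3.53, 3.7 and 2.35 in D+V and 2.19, 2.91, 3.24, 2.91 and 2.4 in D-V. All 5 D-V libraries lay below all 3 controls, and so did D+V 1, 2, 3 and 5. The fitted difference was log2 -0.51 (SE 0.20, unadjusted p = 0.0222, adjusted p = 0.769) for D-V against Control, the single member at an unadjusted p under 0.05 there, and -0.17 for S-V, or -0.05 without S-V 1. Its counts were low, from 37 to 94 per library. The cell cycle inhibitor gene Cdkn1a differed by log2 -0.43 (unadjusted p = 0.0116) and Ddit4, an inhibitor of mTORC1, by log2 -0.21 (unadjusted p = 0.0634) in D-V against S-V. Ddit4 was at -0.14 without D-V 1 and -0.34 without the libraries rich in choroid plexus markers.

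Of the 6 genes of fuel and small-molecule handling, 6 were lower in D-V than in S-V, with Pdk4 alone at an unadjusted p under 0.05. Among them Gpd1 was at -0.004, and at 0.01 without S-V 5. Pdk4, the kinase that shuts pyruvate out of the mitochondrial cycle, was at 11.1, 8.58 and 10.7 in Control, 14.1, 13.9, 12, 16.5 and 8.8 in S-V, 9.12, 18.4, 14.2, 11.9 and 13.4 in D+V and 8.63, 8.3, 10.5, 8.08 and 10.1 in D-V. D-V 1, 2 and 4 were below each D+V library, D-V 3 and 5 were above D+V 1 alone, and S-V 5 lay within the D-V range. The difference was log2 -0.56 (SE 0.17, unadjusted p = 0.00344, adjusted p = 0.157) for D-V against D+V and log2 -0.52 (SE 0.17, unadjusted p = 0.00572, adjusted p = 0.671) for D-V against S-V. Without the 3 D+V libraries rich in astrocyte markers the first was -0.21, and without D+V 1 it was -0.67 and called at an adjusted p of 0.0135.

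Gpd1, which makes glycerol phosphate for lipid synthesis, was at 143, 153 and 158 in Control, 145, 141, 147, 139 and 151 in S-V, 137, 132, 131, 142 and 133 in D+V and 147, 143, 142, 142 and 147 in D-V. All 5 D+V libraries lay below all 3 controls, by a small amount in a gene of little spread. Its difference was log2 -0.16 (SE 0.054, unadjusted p = 0.00653, adjusted p = 0.123) for D+V against Control, and DESeq2 gave it an adjusted p of 0.0331. With GC and length trends removed it was -0.03, with an edgeR adjusted p of 0.935, and its transcripts hold 57.69% GC against a median of 50.93% for the genes tested. Angptl4, a secreted inhibitor of lipoprotein lipase, was at 3.17, 3.07 and 2.77 in Control, 2.68, 2.16, 2.69, 2.89 and 1.86 in S-V, 1.63, 2.71, 4.68, 2.01 and 2.6 in D+V and 1.82, 2.57, 2.72, 1.86 and 1.3 in D-V. All 5 D-V libraries were below the controls, as were 4 in S-V and 4 in D+V, and D+V 3 was the highest of all. The fitted difference was log2 -0.55 (SE 0.29, unadjusted p = 0.0705, adjusted p = 0.841) for D-V against Control. The lipid droplet gene Plin4 (log2 difference 0.88 in S-V against Control, 0.35 without S-V 4 and 0.18 without the libraries rich in choroid plexus markers) had its highest value, from 159 counts, in S-V 4, above the 1.09 to 4.89 CPM of the other libraries, and D-V against S-V, at -0.42, was 0.12 without that library. Xdh, of purine breakdown, and the sulfotransferase gene Sult1a1 had log2 differences of -0.32 and -0.25 in D-V against S-V. Without S-V 4 these were -0.20 and -0.11, and without the libraries rich in choroid plexus markers -0.11 and -0.17.

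The metallothioneins Mt1 and Mt2, small metal-binding proteins of glia, had lower means in D-V than in both other rotated groups, and neither passed the test. Mt1 was at 191, 199 and 167 in Control, 216, 185, 204, 212 and 179.9 in S-V, 204, 212, 199, 134 and 195 in D+V and 155, 167, 176, 162 and 149.5 in D-V. Each D-V library was below each S-V library, and D+V 4 stood apart from the other D+V libraries, which were at 195 to 212 CPM. The differences of D-V were log2 -0.30 (SE 0.10, unadjusted p = 0.00534, adjusted p = 0.671) against S-V, log2 -0.22 (SE 0.10, unadjusted p = 0.0313, adjusted p = 0.313) against D+V and -0.20 against Control. Without D+V 4 the second was -0.33 and was called at an adjusted p of 0.0423. Mt2 was at 114, 119 and 96.9 in Control, 135, 133, 139, 153 and 111 in S-V, 111, 159, 167, 103 and 141 in D+V and 83.2, 110, 125, 101 and 106 in D-V. Its D-V libraries overlapped S-V through D-V 3 alone, and in D+V the 3 libraries rich in astrocyte markers were at 159, 167 and 141 CPM, above D+V 1 and D+V 4. The differences of D-V were log2 -0.37 (SE 0.13, unadjusted p = 0.0104, adjusted p = 0.224) against D+V and log2 -0.35 (SE 0.13, unadjusted p = 0.015, adjusted p = 0.729) against S-V, and without those 3 libraries the first was -0.02. As Mt1 and Mt2 have similar transcripts and nothing used here tells how shared reads were counted, their reads may not have been separated with certainty.

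Of the 6 membrane, junction and cytoskeleton genes, 6 were lower in D-V than in S-V, Rhob at -0.00021, with 3 at an unadjusted p under 0.05, and 0 passed the test. Plekhf1, an adaptor protein of endosomes and lysosomes, was at 3.87, 5.6 and 5.1 in Control, 8.29, 6.07, 8.77, 6.92 and 5.02 in S-V, 3.35, 4.65, 2.58, 5.16 and 3.58 in D+V and 3.22, 4.85, 3.83, 4.24 and 4.34 in D-V. Each D-V library was below each S-V library, and S-V 1 to 4 were above every library of the other groups. The difference was log2 -0.78 (SE 0.19, unadjusted p = 0.000544, adjusted p = 0.61) for D-V against S-V, a fold of 0.584 and the smallest p among the members, and log2 0.53 (SE 0.22, unadjusted p = 0.0241, adjusted p = 0.289) for S-V against Control. With any 1 library left out it ran from -0.88 to -0.69 in D-V against S-V, and its counts were 38 to 201 per library. Gjb6, an astrocyte gap junction gene, differed by log2 -0.31 (unadjusted p = 0.00724) in D-V against S-V and -0.17 without the libraries rich in choroid plexus markers. Fam107a differed by log2 -0.22 (unadjusted p = 0.0300), and -0.06 without them.

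Mertk, a receptor tyrosine kinase with which astrocytes and microglia engulf debris, was at 24.8, 23.1 and 25.9 in Control, 27.1, 31.7, 30.6, 36.8 and 20.9 in S-V, 28.8, 29.5, 26.9, 34.6 and 34.8 in D+V and 29.1, 30.5, 26.5, 24.5 and 33.4 in D-V. All 5 D+V libraries, 4 D-V and 4 S-V libraries lay above the controls, and S-V 5 and D-V 4 did not. Its difference was log2 0.33 (SE 0.14, unadjusted p = 0.0257, adjusted p = 0.215) for D+V against Control, log2 0.27 (SE 0.12, unadjusted p = 0.0347, adjusted p = 0.35) for the rotated groups against Control, and -0.03 for D-V against S-V. Rhob, a small GTPase of endosomes, was the steadiest gene after Gpd1: D+V was at log2 -0.15 against Control (unadjusted p = 0.0442), with all 5 libraries below the controls, and S-V and D-V were each at -0.03. With GC and length trends removed the first was -0.04. The arrestin-domain gene Arrdc2 was lower than every control in all 5 D+V and all 5 D-V libraries, at -0.25 and -0.29. Neither reached an unadjusted p under 0.05, and how many of all genes were so separated from the controls was not counted.

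The 5 vessel and secreted genes were the least uniform block, with 3 lower and 2 higher in D-V than in S-V. Ccn2, a matrix-associated growth regulator, was at 6.82, 10.9 and 7.58 in Control, 7.55, 7.49, 6.61, 18.9 and 7.56 in S-V, 6.66, 4.83, 4.82, 8.35 and 6.61 in D+V and 9.79, 12.7, 12.4, 11 and 6.42 in D-V. D-V 1 to 4 lay above all D+V libraries, D-V 5 did not, and S-V 4 stood far above its group. The fitted difference was log2 0.74 (SE 0.27, unadjusted p = 0.0153, adjusted p = 0.254) for D-V against D+V. Without the libraries rich in choroid plexus markers it was 0.54, and without the 3 D+V libraries rich in astrocyte markers 0.48. Lcn2 had the largest difference of the list, -2.57 in D-V against S-V, and it rested on S-V 4, at 14.7 CPM where the other S-V libraries were at 0.526 to 1.36 CPM. Without S-V 4 the difference was -0.56. Tsku, a secreted leucine-rich repeat protein, differed by log2 0.41 in D-V against S-V, and Nostrin, which traffics nitric oxide synthase in endothelium, and Mfsd2a, the lipid transporter of the blood-brain barrier, were at -0.29 and -0.03.

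Other genes of the pathway were read from 3 lists, and no gene of them passed the test in any of the 6 comparisons. Of the receptor complex and its coregulators, 16 of 16 were tested; 13 were lower in D-V than in S-V, with a median of -0.04, and none at an unadjusted p under 0.05. The glucocorticoid receptor gene Nr3c1 was at a mean of 80.01 ± 12 (SD, n = 3) CPM in Control, 84 ± 7.26 (SD, n = 5) CPM in S-V, 87.9 ± 5.53 (SD, n = 5) CPM in D+V and 78.1 ± 7.66 (SD, n = 5) CPM in D-V, and the groups overlapped. The mineralocorticoid receptor gene Nr3c2 was at 195 ± 45.5 (SD, n = 3), 192 ± 26.5 (SD, n = 5), 199 ± 14.6 (SD, n = 5) and 184 ± 20.2 (SD, n = 5) CPM in the same order. The chaperone gene Hsp90aa1 differed by log2 0.20 (SE 0.086, unadjusted p = 0.0323, adjusted p = 0.341) in the rotated groups against Control and by log2 0.36 (SE 0.10, unadjusted p = 0.00163, adjusted p = 0.0732) in D+V against Control, with 5 of 5 libraries above the controls.

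Of the genes of corticosteroid metabolism and the CRH system, 7 of 9 were tested, all but Hsd11b2 and Ucn; 5 were higher in D-V than in S-V, with a median of 0.09. Srd5a1, a steroid reductase, differed by log2 0.16 in the rotated groups against Control, with 14 of 15 libraries above the controls (adjusted p = 0.419), and Crh, the hypothalamic releasing hormone gene that interneurons of the hippocampus also express, by log2 0.38 (adjusted p = 0.589). Of 20 other glucocorticoid-regulated genes, 12 were higher and 8 lower in S-V than in Control, with a median of 0.03, beside 0.22 for the 33. Its gene with the smallest p was Klf15, a Krueppel-like factor, at log2 0.35 (SE 0.10, unadjusted p = 0.00149, adjusted p = 0.174) for S-V and log2 0.28 (SE 0.10, unadjusted p = 0.00855, adjusted p = 0.71) for D-V against Control, with 5 of 5 libraries above the controls in each. Cyp7b1, a sterol hydroxylase, differed by log2 0.18 in the rotated groups against Control (adjusted p = 0.465). In D-V against S-V the same 20 genes had 6 higher and 14 lower, with a median of -0.07.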

How the data were processed

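The 18 RNA-seq libraries of mouse hippocampus, in 4 groups, were analysed from 1 table of the whole series. The authors deposited an estimated count for each gene and library, 7.35% of them not whole numbers, per the file headers and the values. Per the submitters' processing notes, the tools of the authors were HISAT2, Bowtie2 2.2.8, StringTie 1.3.1 and DESeq2; which step each served, and the build, gene models and strand setting, were not given in the sources used. Reads shared by overlapping, antisense or near-identical genes therefore cannot be placed with certainty.

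Counts were rounded. Genes passing filterByExpr (14763, leaving out 0.0255% of the counts) were scaled by TMM and tested with edgeR 4.0.16 in R 4.3.3 (quasi-likelihood F test), on all 18 libraries with a mean for each of the 4 groups, and p-values were adjusted by Benjamini-Hochberg over all genes tested. A gene was called at an adjusted p under 0.05, by edgeR unless another tool is named. Differences are fitted log2 fold changes. Common biological variation was 15.4%. Symbols were found for 21973 of 22063 identifiers. CPM used TMM-scaled totals, and levels per kilobase used exon lengths of GENCODE vM21. Without molecular identifiers, PCR copies count more than once. No library was a copy of another (highest correlation 0.9902).

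The members and lists were chosen with earlier results of these data known. Values in every library are given for Fkbp5, Sgk1, Tsc22d3, Mt1 and Mt2, for the 3 members of smallest unadjusted p in each comparison and, chosen after its values were seen, Nfkbia. Of each pathway list the 2 genes of smallest p over the rotated groups against Control are named, with Nr3c1 and Nr3c2. On simulated data for D-V against S-V (14668 genes), the fit called 65% of 100 genes set to differ by log2 0.58. It called 89% of 100 set to differ by log2 1, and 2.53% of its calls were false. Only genes with an average log2 CPM above 1 were changed, and the simulated libraries had no differences in GC trend or tissue content. The changed genes also make the adjustment of p-values less strict. In the real comparison the smallest edgeR adjusted p of all genes was 0.61, so these rates do not carry over to it. Differences as small as the members' median of -0.26 were not simulated, so the calling rate at that size is not known. Alternatives were other scalings and filters, DESeq2 1.42.0, limma 3.58.1 (voom with quality weights), fits of the compared groups alone, a replicate block, a choroid plexus covariate, removal of GC and length trends, and leaving out each library; leaving out the libraries rich in choroid plexus or in astrocyte markers was added after seeing the data.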

Additional observations from a re-analysis of the deposited data

Results flagged for a closer look

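Of 99 groups of 5 libraries examined (33 genes in the 3 rotated groups), 9 had a highest or lowest library that stood apart from the others by Dixon's criterion; chance marks about 1 group in 20. S-V 4 was low for Sesn1, at 63.1 CPM where the other S-V libraries were at 70.6 to 72.7 CPM, and high for Lcn2, at 14.7 CPM against 0.526 to 1.36 CPM, and for Ccn2, at 18.9 CPM against 6.61 to 7.56 CPM. In D+V, Il1r1 was at 8.89 CPM in D+V 3 against 15 to 17.3 CPM, and Mt1 at 134 CPM in D+V 4 against 195 to 212 CPM. In D-V, Fkbp5 was at 59.3 CPM in D-V 3 against 66.4 to 68.8 CPM, Sesn1 at 63.2 CPM in D-V 5 against 57.7 to 58.3 CPM, Xdh at 4.56 CPM in D-V 2 against 4.85 to 4.93 CPM, and Fam107a at 333 CPM in D-V 4 against 391 to 410 CPM. S-V 4, which held 3 of the 9 values, was among the libraries rich in choroid plexus markers, as were D-V 3 and D-V 4.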

How the results depend on the processing

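The medians of the 33 genes moved by less than the pooled SD of the library medians, 0.112 on the log2 scale, in all 130 refits of the 6 comparisons. In 20 of them the median had the other sign: 15 of D-V against D+V, where it was 0.005 as reported and as low as -0.06 without D+V 3, 3 of D+V against Control (up to 0.04, without the 3 libraries rich in astrocyte markers) and 2 of D-V against Control (up to 0.004, without D-V 1). A change under the pooled SD can also be large beside the median. In S-V against Control the median went from 0.22 to 0.11 without the libraries rich in choroid plexus markers. The number of members called was 0 in most settings. In D+V against Control it was 1 with DESeq2, 2 with limma, and 0 to 1 with a library left out; in D-V against D+V it was 3 with limma and 0 to 2 with a library left out, the 2 without D+V 1. Of 4290 refitted values of single genes, 4244 moved by less than the gene's own within-group SD, 36 by more, and 10 came to be called. A change under that SD can be large beside the value itself: 243 of the 4290 had the other sign, 0 of them called. The replicate numbers did not pair the libraries: deviations of same-numbered libraries had correlations of -0.452 to 0.34 (median 0.00753, 24 pairs). With the replicate block, 0 members were called in each comparison, and the median of D-V against S-V was -0.24 with 30 genes lower. Fits of the compared groups alone were not run for the rotated groups, where they equal the reported fit. The depth of 15.03 to 25.31 M counts left Lcn2 with 3 to 234 counts, Plin4 with 16 to 159 and Angptl4 with 20 to 72 per library, and the standard errors of Lcn2 and Plin4 in D-V against S-V were 0.99 and 0.44 on the log2 scale.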
